A study of Mus musculus with 2 samples.

Results

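The metabotropic GABA receptor of the habenula was examined as a set of 10 genes in single-cell RNA counts: the receptor subunits Gabbr1 and Gabbr2, the auxiliary subunits Kctd8, Kctd12, Kctd12b and Kctd16, and the subunits Kcnj3, Kcnj5, Kcnj6 and Kcnj9 of the potassium channels that the receptor opens. The set was chosen by gene name, not by level, and all 10 genes were among the 28692 genes listed in both count matrices. The levels were read in medial habenula-like (MHb-like) and lateral habenula-like (LHb-like) neurons, in their subclusters, and in the other cell classes of the tissue.

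The habenula is a small pair of nuclei above the thalamus, implicated in aversion, and its medial and lateral divisions send excitatory axons to different midbrain targets. The GABA-B receptor is an obligate heterodimer, in which the Gabbr1 product binds GABA and the Gabbr2 product couples to inhibitory G proteins. KCTD proteins bind the Gabbr2 product and shape the onset and desensitisation of the response. G protein beta-gamma subunits released by the receptor open G protein-gated inward rectifier potassium (GIRK) channels, which hyperpolarise the neuron, and also act on presynaptic calcium channels. In most neurons this lowers transmitter release, whereas at medial habenula terminals in the interpeduncular nucleus GABA-B receptor activation is known to increase it.

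The study compared 1 control library with 1 foot shock library, each made from habenula punches pooled from 4 adult male C57BL/6 mice aged 50 to 55 days. Mice of both groups were handled for 5 min a day over 7 days. The foot shock mice also spent 10 min a day in the chamber on those 7 days and then received 30 shocks of 0.3 mA lasting 1 s within a session of 60 min, with tissue taken straight afterwards. Control mice came directly from the home cage, so shock, chamber exposure and library cannot be told apart. Tissue of both groups was cut in solution holding blockers of transcription and translation and dissociated with pronase, and about 17000 cells were loaded per 3′ droplet library. Because each group was 1 pooled library, the values compare those libraries and not the conditions, and no test across animals was possible. Intervals are 95% intervals of counting error (exact Poisson for levels, exact binomial for shares and ratios).

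After filtering, 4880 control and 4771 foot shock cells were kept, with a median of 2416.5 and 2698 unique molecular identifiers (UMIs) per cell. The MHb-like class held 1219 and 1677 cells and the LHb-like class 955 and 875 cells (control and foot shock, the order used throughout). Summed medial markers reached 3464 and 3429 CPM (UMIs of a gene per 1000000 UMIs of the class) in MHb-like cells and 586 and 701 CPM in LHb-like cells. Summed lateral markers reached 479 and 509 CPM in MHb-like cells and 2649 and 2734 CPM in LHb-like cells. The libraries shared 32 cell barcodes, and 503 cells led by keratin genes were found in the foot shock library against 0 in control. Class names come from clustering the same cells, with the 10 genes and their partner lists kept out of the features, so MHb-like against LHb-like is described without a test.

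Among the receptor genes, both divisions held abundant Gabbr1 and differed mainly in Gabbr2, the subunit that couples to the G protein. Gabbr2, Kctd8 and Kctd12b were higher in MHb-like neurons, whereas Kctd12, Kcnj3, Kcnj5 and Kcnj9 were higher in LHb-like neurons. A gene was counted as higher when its level was at least 1.5-fold above that of the other class in each library. With at least 20 UMIs over both classes in each library required, 9 of the 10 genes were measured. Of these 9, 3 lay higher medially (8.44% of the 11693 genes tested did) and 4 higher laterally (16.3% of the genes tested did). Medial genes were 34.1% of these calls over all genes (987 against 1905), and 46.6% (1280 against 1469) after trimmed mean of M values (TMM) scaling, under which the same 3 and 4 members were called. The median over all genes tested was -0.15 and -0.12 on the log2 scale of MHb-like over LHb-like. For the GIRK genes the same median was -2.27 and -1.78, for the 3 measured Kctd genes 1.48 and 1.03, and for the receptor genes 1.20 and 1.04.

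**Figure D1:**
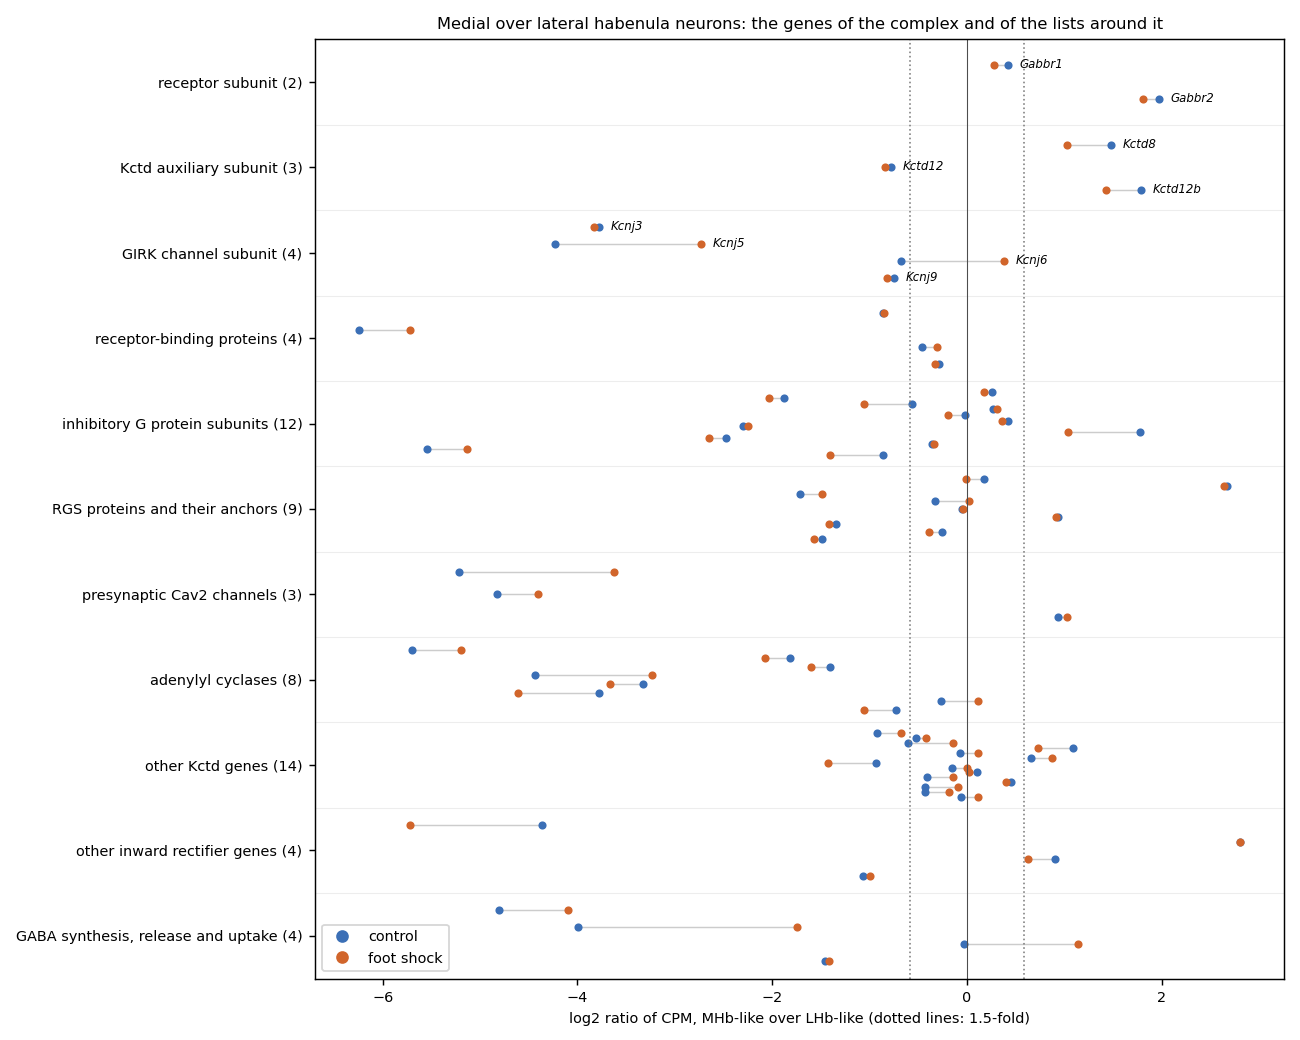
Log2 ratio of the MHb-like to the LHb-like level for each measured gene, in the control library (blue) and the foot shock library (orange), joined by a line. The gene set is labelled by role, the partner lists follow, and dotted lines mark 1.5-fold. Gabbr2, Kctd8 and Kctd12b lie to the medial side in both libraries, and Kcnj3 lies far to the lateral side at 13.8-fold and 14.3-fold.

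Gabbr1 (chromosome 17, 37045966 to 37075067, plus strand, mm10) encodes the GABA-binding subunit and was the most counted member of the set. It reached 2921 CPM (2874 to 2968) in control and 2890 CPM (2846 to 2933) in foot shock MHb-like neurons. In LHb-like neurons it reached 2187 CPM (2143 to 2233) and 2392 CPM (2339 to 2446). The intervals of the classes did not overlap in either library, but the ratio of MHb-like to LHb-like was below 1.5-fold, at 1.34 (1.30 to 1.37) and 1.21 (1.18 to 1.24). This small difference depended on how finely the cells were clustered: at resolution 1.5 the log2 ratio was -0.00 in control and -0.01 in foot shock. After thinning each cell to 1000 UMIs, 91.2% and 91.3% of MHb-like cells and 80.3% and 83.9% of LHb-like cells had a Gabbr1 UMI. The same share in oligodendrocyte-like cells was 15% and 16.5%, at a median depth of 2068 and 1859 UMIs per cell against 4232 and 3492 in MHb-like and 4350 and 3623 in LHb-like cells. The 3′ counts do not separate the Gabbr1 isoforms that differ at their 5′ ends.

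Gabbr2 (chromosome 4, 46662305 to 46991873, minus strand) encodes the signalling subunit without which the receptor does not reach the cell surface. Its level in MHb-like neurons was 808 CPM (784 to 833) in control and 791 CPM (768 to 814) in foot shock. In LHb-like neurons it was 206 CPM (192 to 220) and 227 CPM (211 to 244). The medial level was therefore higher by 3.93-fold (3.65 to 4.23) and 3.49-fold (3.23 to 3.78), well outside the intervals in both libraries. At 1000 UMIs per cell, 51.3% and 51.6% of MHb-like cells and 16.8% and 17.9% of LHb-like cells had a Gabbr2 UMI, against 1.06% and 2.18% of oligodendrocyte-like cells. Without thinning the shares were 85.5% and 83.3% in MHb-like and 46.9% and 44.5% in LHb-like cells. Also without thinning, UMIs of both receptor genes were found in the same cell in 85.3% and 83.1% of MHb-like cells, but in 46.2% and 43.7% of LHb-like cells.

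The balance of the receptor genes differed between the divisions. MHb-like neurons had 3.61 (3.49 to 3.74) and 3.65 Gabbr1 UMIs for each Gabbr2 UMI. LHb-like neurons had 10.6 (9.91 to 11.4) and 10.6. The 3′ counting efficiency of each gene enters such a ratio, so it is read between cell classes and not as a count of subunits. Thalamus neuron-like cells stood at 2.24 and 2.37, below both habenula classes.

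Among the KCTD subunits, MHb-like neurons held mostly Kctd8 with Kctd12b, and LHb-like neurons held Kctd8 and Kctd12 at similar levels. Kctd8 (chromosome 5, 69109285 to 69341679, minus strand) reached 215 CPM (202 to 228) and 213 CPM (201 to 225) in MHb-like neurons. In LHb-like neurons it reached 76.9 CPM (68.7 to 85.7) and 104 CPM (93.4 to 116), against 63.2 and 73.6 CPM in barcodes with 10 to 100 UMIs, which hold mainly free RNA. Oligodendrocyte-like cells held 5.88 and 6.87 CPM. The medial level was higher by 2.79-fold (2.46 to 3.17) and 2.04-fold (1.81 to 2.31). With clustering at resolution 1.5 the Kctd8 difference no longer reached 1.5-fold in both libraries. The exons of Kctd8 overlap the opposite-strand gene Gm24368, and the sources used here do not give the strand setting of the counting.

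Kctd12b (chromosome X, 153685154 to 153696391, minus strand) is the KCTD gene long known for its expression in the medial habenula. It reached 76.8 CPM (69.4 to 84.9) and 66.5 CPM (60.0 to 73.4) in MHb-like neurons, against 22.2 CPM (17.9 to 27.2) and 24.7 CPM (19.6 to 30.7) in LHb-like neurons. The medial level was 3.46-fold (2.75 to 4.39) and 2.69-fold (2.11 to 3.47) higher. Free RNA carried Kctd12b at 19.7 and 21.0 CPM, close to the LHb-like level. Oligodendrocyte-like cells carried it at 1.26 and 1.15 CPM.

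Kctd12 (chromosome 14, 102976581 to 102982637, minus strand), whose product speeds desensitisation of the receptor response, had the opposite order. It reached 39.9 CPM (34.6 to 45.8) and 45.7 CPM (40.4 to 51.5) in MHb-like neurons and 68.5 CPM (60.8 to 76.9) and 81.7 CPM (72.2 to 92.2) in LHb-like neurons. The lateral level was 1.72-fold (1.43 to 2.07) and 1.79-fold (1.5 to 2.13) higher. Free RNA held Kctd12 at 37.2 and 36.3 CPM, near the MHb-like level, whereas oligodendrocyte-like cells held 1.68 and 3.44 CPM. Averaging over cells in place of summing their UMIs took Kctd12 below 1.5-fold. Its exons overlap Gm26778 on the opposite strand and Mir5130 on the same strand. Kctd16 (chromosome 18, 40256962 to 40531630, plus strand) was at 0 UMIs in MHb-like neurons of both libraries, which allows up to 0.590 and 0.510 CPM. It had 3 and 1 UMIs in LHb-like neurons.

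As shares of all Kctd UMIs, Kctd8 made up 64.8% and 65.4% in MHb-like neurons, Kctd12b 23.2% and 20.5%, and Kctd12 12% and 14.1%. In LHb-like neurons Kctd8 made up 45.7% and 49.4%, Kctd12 40.7% and 38.7%, and Kctd12b 13.2% and 11.7%. The summed Kctd level was 331 and 325 CPM in MHb-like and 168 and 211 CPM in LHb-like neurons. Without thinning, Kctd8 and Kctd12b UMIs occurred together in 15.7% and 10.4% of MHb-like cells.

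Of the 4 GIRK genes, Kcnj3, Kcnj5 and Kcnj9 were higher in LHb-like neurons and Kcnj6 had no steady order. Kcnj3 (GIRK1; chromosome 2, 55435970 to 55598145, plus strand), the subunit that confers strong channel activity on heteromers, was close to 0 in MHb-like neurons. It had 18 and 15 UMIs there, or 3.54 and 2.55 CPM, in 1219 and 1677 cells. LHb-like neurons held 48.7 CPM (42.2 to 55.9) and 36.4 CPM (30.1 to 43.6), 13.8-fold (8.49 to 23.7) and 14.3-fold (8.31 to 26.3) above the medial level. Free RNA held more Kcnj3 than MHb-like neurons did, at 13 and 6.74 CPM. At 1000 UMIs per cell, 4.95% and 3.94% of LHb-like cells had a Kcnj3 UMI, against 0.312% and 0.191% of MHb-like cells.

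Kcnj9 (GIRK3; chromosome 1, 172320501 to 172329318, minus strand) was the most counted GIRK gene in both divisions. It reached 47.8 CPM (41.9 to 54.2) and 40.8 CPM (35.8 to 46.3) in MHb-like neurons, and 80.2 CPM (71.9 to 89.3) and 72.2 CPM (63.2 to 82.0) in LHb-like neurons. The lateral level was 1.68-fold (1.42 to 1.99) and 1.77-fold (1.47 to 2.13) higher. In free RNA it stood at 26.9 and 16.3 CPM, below both classes.

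Kcnj6 (GIRK2; chromosome 16, 94748636 to 94997701, minus strand), which can form channels on its own, was counted at low levels in both divisions. Its MHb-like levels were 7.47 and 8.84 CPM and its LHb-like levels 11.9 and 6.79 CPM. The lateral to medial ratio was 1.60 (1.03 to 2.50) in control and 0.767 (0.444 to 1.29) in foot shock, so the direction differed between the libraries. Kcnj5 (GIRK4; chromosome 9, 32314707 to 32344350, minus strand) had 2 and 6 UMIs in MHb-like and 31 and 22 UMIs in LHb-like neurons. Its lateral excess of 18.8-fold (4.79 to 162) and 6.65-fold (2.62 to 20.1) rests on those few UMIs, and with only cells of at least 2000 UMIs Kcnj5 was under the minimum of 20 UMIs. Opposite-strand genes overlap exons of Kcnj3 (Gm26794), Kcnj6 (Gm41505) and Kcnj9 (Gm36937).

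Kcnj9 made up 80.7% and 76.7% of GIRK UMIs in MHb-like neurons, Kcnj6 12.6% and 16.6%, Kcnj3 5.98% and 4.79%, and Kcnj5 0.664% and 1.92%. In LHb-like neurons Kcnj9 made up 54.1% and 59.1%, Kcnj3 32.9% and 29.8%, Kcnj6 8.05% and 5.56%, and Kcnj5 4.99% and 5.56%. The medial division was thus poor in Kcnj3 relative to the other GIRK genes as well as in level. The summed GIRK level was 59.2 and 53.2 CPM in MHb-like and 148 and 122 CPM in LHb-like neurons. Without thinning, Kcnj3 and Kcnj9 UMIs occurred together in 7.75% and 2.86% of LHb-like cells.

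To set the medial and lateral genes beside their start sites, the 250 bases upstream of the RefSeq transcription start (GRCm38.p6) are shown for Gabbr2 and Kctd8, which were higher in MHb-like neurons, and for Kcnj3 and Kcnj9, which were higher in LHb-like neurons. Each is written 5′ to 3′ on the gene's own strand, with capitals marking matches to any of the motifs searched on both strands.
Gabbr2, chr4:46991715-46991964, minus strand: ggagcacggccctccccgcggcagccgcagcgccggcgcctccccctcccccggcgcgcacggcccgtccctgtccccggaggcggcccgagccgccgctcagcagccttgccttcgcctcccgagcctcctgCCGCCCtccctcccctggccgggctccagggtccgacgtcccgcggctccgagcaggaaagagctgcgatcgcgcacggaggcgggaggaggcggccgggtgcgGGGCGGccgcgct
Kctd8, chr5:69341710-69341959, minus strand: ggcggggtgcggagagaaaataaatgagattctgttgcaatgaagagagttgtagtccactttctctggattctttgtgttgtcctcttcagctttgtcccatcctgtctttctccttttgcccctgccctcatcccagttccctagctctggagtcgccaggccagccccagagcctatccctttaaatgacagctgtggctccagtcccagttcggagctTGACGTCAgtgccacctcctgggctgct
Kcnj3, chr2:55435720-55435969, plus strand: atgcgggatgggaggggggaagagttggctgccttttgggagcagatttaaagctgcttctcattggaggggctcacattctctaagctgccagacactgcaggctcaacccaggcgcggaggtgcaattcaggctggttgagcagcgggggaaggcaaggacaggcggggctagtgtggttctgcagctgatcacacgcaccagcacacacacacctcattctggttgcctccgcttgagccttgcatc
Kcnj9, chr1:172329323-172329572, minus strand: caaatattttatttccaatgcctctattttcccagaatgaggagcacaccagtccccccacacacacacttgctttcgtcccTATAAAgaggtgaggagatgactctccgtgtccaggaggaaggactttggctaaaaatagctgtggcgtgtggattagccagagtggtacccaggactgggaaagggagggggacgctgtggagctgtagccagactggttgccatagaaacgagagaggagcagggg
The capitals match the letters of GC boxes (GGGCGG) in Gabbr2, a cyclic AMP response element (TGACGTCA) in Kctd8 and a TATA box (TATAAA) in Kcnj9. The Kcnj9 match lies nearer the upstream end of its window than the transcription start. Kcnj3 held none of the motifs.

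Gabbr2 stood apart from the other 3 windows shown in base composition. It had 80.8% G and C with 37 CpG dinucleotides, against medians of 52.4% and 6 over the 32851 RefSeq promoters of the same length. The window of Kctd12, which was higher laterally and is not shown, was close to it at 77.6% and 36 CpG dinucleotides. Kctd8 had 53.6%, Kcnj3 58.4% and Kcnj9 52.0%. Of all promoters 32.7% held the GC box, 12.4% the TATA box and 1.55% the cyclic AMP response element. Besides Gabbr2, the GC box was found in Gabbr1, Kcnj5, Kcnj6 and Kctd12, so it was not particular to the medial genes. An octamer (ATTTGCAT), held by 1.60% of promoters, was found among the 8 matched members in Kctd12 only. A homeodomain core (TAATTA, 4.84% of promoters) and an E-box (CACGTG, 6.02%) were found in none of them. Such matches describe the letters of these windows and are not evidence of binding. The RefSeq table held no entry for Kctd12b, and no sequence is shown for Kctd16.

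Within the divisions the set separated subclusters further. The 8 MHb-like and 9 LHb-like subclusters with at least 30 cells in each library are numbered here and described by leading genes. The cholinergic genes Chat, Slc18a3 and Slc5a7 were highest in MHb 3 (Fgf1, Syndig1l), MHb 7 and MHb 4 (Car2, Pcp4l1). Slc5a7, for the choline transporter, stood there at 1001 and 947, 836 and 855, and 553 and 533 CPM. MHb 3 held 6, MHb 7 held 4 and MHb 4 held 2 of the 6 cholinergic subtype markers, and MHb 2 and MHb 5 also held 2. Tac2, on the cholinergic list, was highest in MHb 5 at 1192 and 1032 CPM. Tac1, for the tachykinin precursor, was high in MHb 5 (Cck, Adcyap1, Wif1) at 338 and 332 CPM and in MHb 1 (Sema3d, Kcnmb4, Calb1) at 191 and 195 CPM. MHb 5 held 6 and MHb 1 held 3 of the 6 tachykinin-1 subtype markers. MHb 2 was led by Calcrl and Syt15 and MHb 8 by Lmo1 and Rspo4. MHb 6, MHb 7 and LHb 4 had low UMI depth. The lateral ones were LHb 1 (Megf11, Necab1), LHb 2 (Sv2c, Chrm2), LHb 3 (Wif1, Peg10), LHb 5 (Ddc, Col2a1), LHb 6 (Lypd1, Syt2), LHb 7 (Sst, Npr1), LHb 8 (Cxcl13, Ret) and LHb 9 (Rorb, Ntng1). Pou4f1, a transcription factor of habenula neurons, was lowest in LHb 1 and LHb 6, at 1.20 and 1.42 per 10000 UMIs, close to the limit of 1 used to admit a subcluster.

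**Figure D2:**
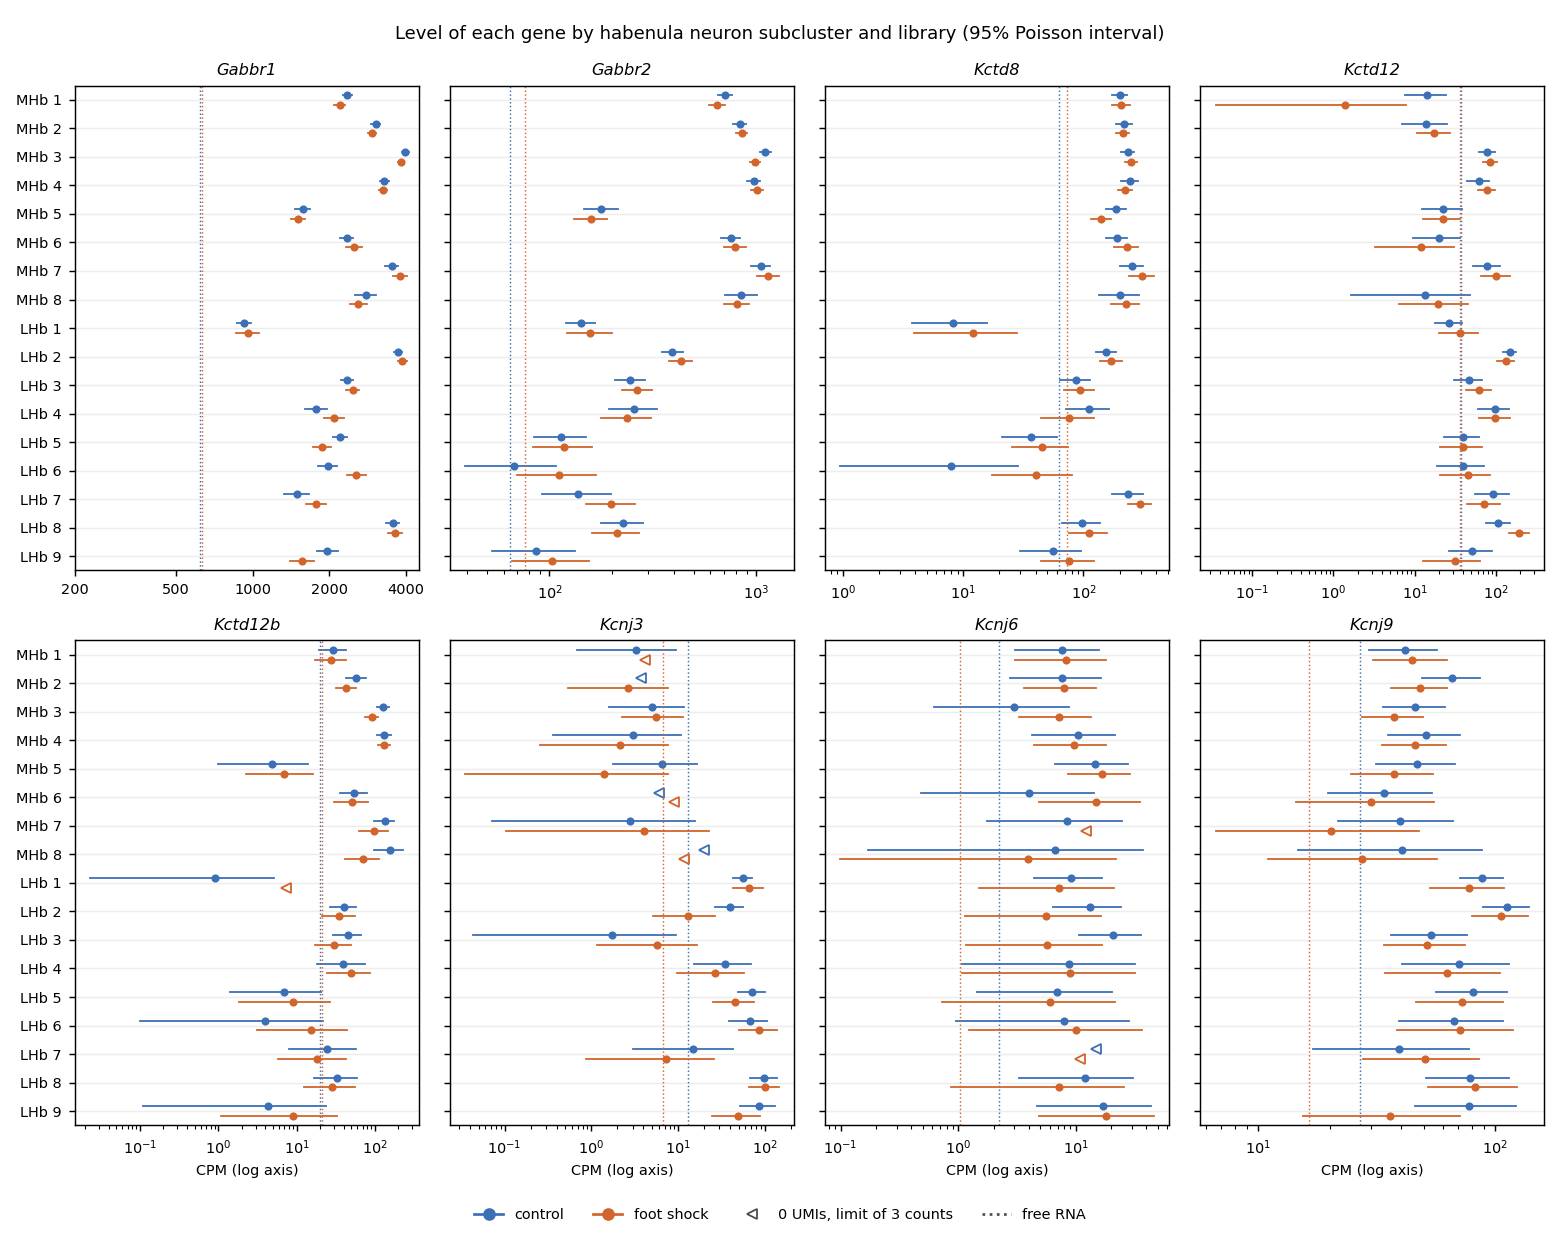
Level of 8 genes of the set (CPM, log axis) in each MHb-like and LHb-like subcluster, in the control (blue) and foot shock (orange) libraries. Bars are 95% Poisson intervals, open triangles are 0 UMIs drawn at the limit of 3 counts, and dotted lines are the free RNA levels. MHb 5 lies apart from the other medial subclusters for Gabbr1, Gabbr2 and Kctd12b, and LHb 1 has the lowest Gabbr1 of the lateral ones.

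MHb 5, the Tac1 and Cck subcluster, had the lowest levels of both receptor genes and of Kctd12b in the medial division. Gabbr1 stood there at 1569 CPM (1472 to 1671) and 1507 CPM (1418 to 1599), against 3965 and 3813 CPM in MHb 3 and 3507 and 3782 CPM in MHb 7. The highest medial subcluster exceeded MHb 5 by 2.53-fold in both libraries. Gabbr2 stood at 178 CPM (146 to 214) and 159 CPM (131 to 190) in MHb 5, within the range of the lateral subclusters, and at 1107 and 987 CPM in MHb 3 and 1049 and 1140 CPM in MHb 7. MHb 1, which also held Tac1, had Gabbr2 at 709 and 648 CPM, Gabbr1 at 2351 and 2201 CPM and 3.32 and 3.40 Gabbr1 UMIs per Gabbr2 UMI, so the low receptor levels of MHb 5 were not shared by both Tac1 subclusters. The Gabbr2 range was 6.22-fold and 7.19-fold, but the highest subcluster was MHb 3 in control and MHb 7 in foot shock. Kctd12b had 3 and 5 UMIs in MHb 5, or 4.85 and 6.96 CPM, against 132 and 132 CPM in MHb 4 and 128 and 91.5 CPM in MHb 3.

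Kctd8 varied less, from 188 to 252 CPM over the 8 medial subclusters in control and from 141 to 305 CPM in foot shock, with 188 and 141 CPM in MHb 5. As a share of Kctd UMIs, Kctd8 therefore reached 87.2% and 82.8% in MHb 5. The ratio of Gabbr1 to Gabbr2 UMIs was 8.82 and 9.5 in MHb 5 and between 3.11 and 3.86 in the other 7 medial subclusters. Kctd12 was confined neither to the lateral division nor to 1 subcluster: MHb 3 held 77.9 and 85.1 CPM, MHb 4 61.6 and 77.9 CPM and MHb 7 79.4 and 102 CPM, while the other 5 held 13.4 to 22.6 CPM in control and 1.39 to 22.3 CPM in foot shock. Kcnj6 was highest in MHb 5 at 14.6 and 16.7 CPM, on 9 and 12 UMIs, and its intervals there overlapped those of the lowest subclusters (MHb 3 in control with 3 UMIs, MHb 7 in foot shock with 0).

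**Figure D3:**
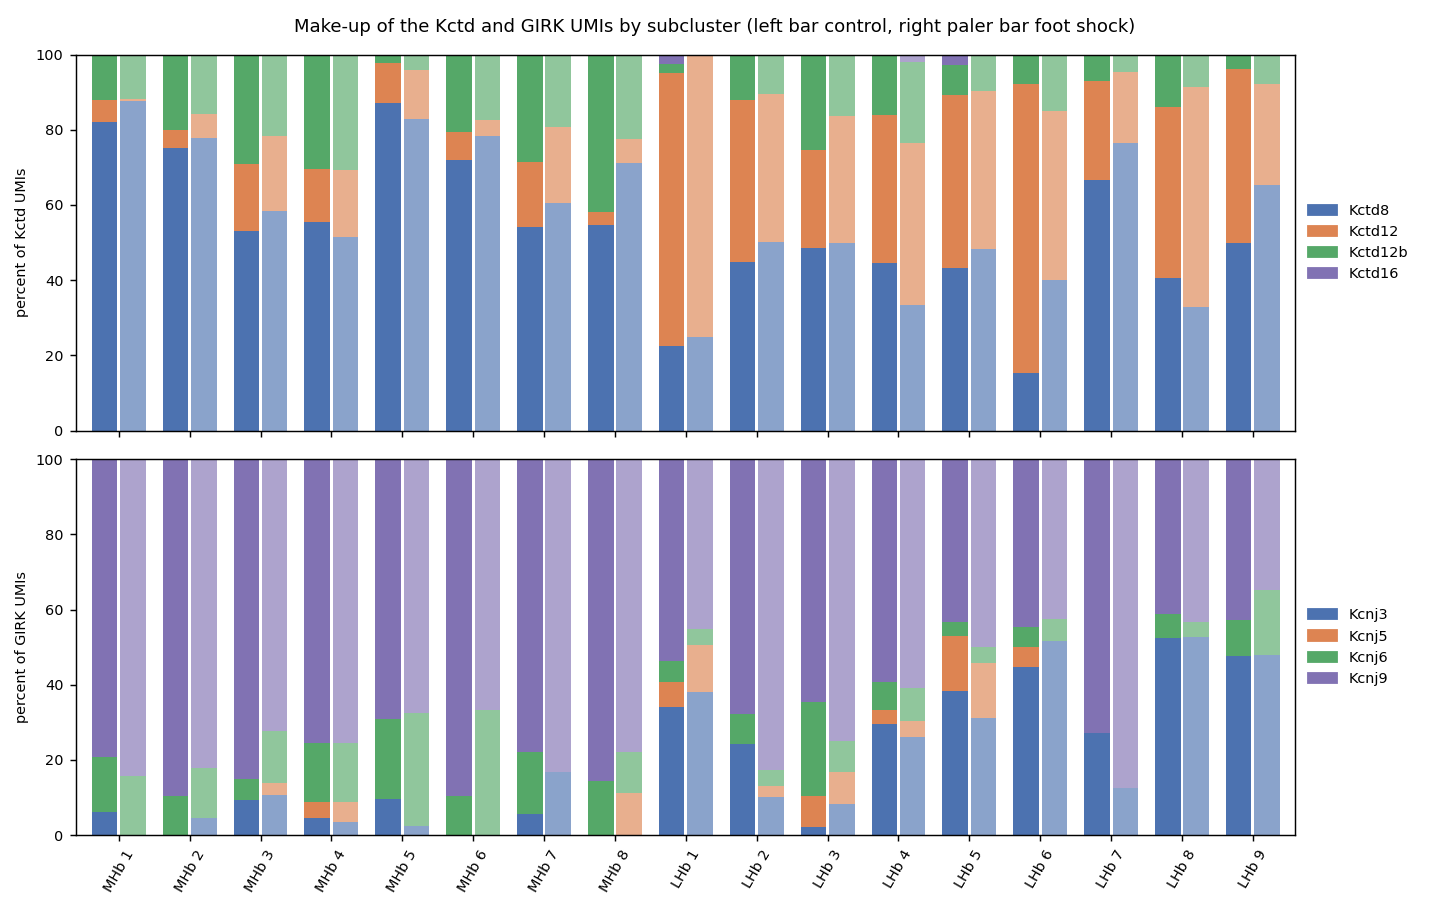
Share of each gene in the UMIs of the 4 Kctd genes (top) and of the 4 GIRK genes (bottom) in each subcluster, in percent, with control as the left bar and foot shock as the right, paler bar. Kctd8 makes up most of the Kctd UMIs in MHb 5, Kctd12 most of them in LHb 1, and Kcnj3 is a visible part of the GIRK bars mainly in the lateral subclusters.

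The medial pattern was also read by gating MHb-like cells on marker UMIs in place of clusters. The tachykinin-1 gate took cells with a UMI of Tac1 and none of Chat, Slc5a7 and Slc18a3, and the cholinergic gate took cells with a UMI of any of these 3 and none of Tac1. Cells in the tachykinin-1 gate (182 and 194 cells) held Gabbr1 at 1816 and 1742 CPM, and cells in the cholinergic gate (709 and 941 cells) held 3382 and 3359 CPM. Gabbr2 stood at 416 and 335 CPM against 953 and 940 CPM, and Kctd12b at 19.5 and 21.3 CPM against 102 and 86.3 CPM. Kctd12 stood at 16.5 and 18.0 CPM in the tachykinin-1 gate, on 11 UMIs in each library, against 52.9 and 61.5 CPM. The 4 genes were thus higher in the cholinergic gate in both libraries, while Kcnj9 stood at 46.6 and 32.8 CPM against 48.2 and 40.6 CPM.

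A gene was counted as varying among subclusters when its highest level was at least 2 times its lowest in each library and the same subcluster was highest in both. By that count 3 of 7 measured genes varied in the medial division (Gabbr1, Kctd12 and Kcnj6; 19.1% of the genes tested there did), of which Kcnj6 rests on the few UMIs given above. In the lateral division 5 of 9 varied (Gabbr1, Gabbr2, Kctd8, Kcnj3 and Kcnj9; 22.9% of the genes tested there did). The medial count was 5 with clustering at resolution 0.5, where Gabbr2 and Kctd12b joined.

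The lateral subclusters differed in nearly every role. Gabbr1 was highest in LHb 2, at 3709 and 3865 CPM, and in LHb 8, at 3539 and 3624 CPM, and lowest in LHb 1, at 925 and 955 CPM. The range from LHb 1 to LHb 2 was 4.01-fold and 4.05-fold, against 2.53-fold in both libraries in the medial division. The wider lateral range rests on LHb 1, which lay close to the Pou4f1 limit. The next lowest lateral levels were 1491 CPM in LHb 7 (control) and 1565 CPM in LHb 9 (foot shock). These lay near the 1569 and 1507 CPM of MHb 5, the lowest medial subcluster. Gabbr2 was highest in LHb 2 as well, at 393 and 432 CPM, and lowest in LHb 6 for control (67.3 CPM) and in LHb 9 for foot shock (103 CPM), close to its free RNA level of 64.3 and 76.0 CPM. LHb 6 had 29.3 and 23 Gabbr1 UMIs per Gabbr2 UMI, and LHb 1 had 6.55 and 6.08.

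Kctd8 was highest in LHb 7, the Sst subcluster, at 236 and 293 CPM, a level like that of the medial subclusters. It stood at 8.26 and 12.1 CPM in LHb 1, and in LHb 6 at 7.91 and 40.4 CPM on 2 and 8 UMIs. Both subclusters lay below the free RNA level of 63.2 and 73.6 CPM in both libraries. Kctd12 led in different subclusters of the libraries: LHb 2 held 149 and 134 CPM, and LHb 8 held 108 and 197 CPM. The leading Kctd gene therefore differed between subclusters: Kctd8 made up 66.7% and 76.4% of Kctd UMIs in LHb 7, and Kctd12 made up 72.5% and 75.0% in LHb 1. The level of Kctd12 in LHb 1 was low, at 26.6 and 36.3 CPM on 29 and 15 UMIs, no higher than in free RNA (37.2 and 36.3 CPM), and Kctd8 was lower still.

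Kcnj3 was highest in LHb 8, at 99.4 and 100.2 CPM, where it made up 52.4% and 52.8% of the GIRK UMIs. It was lowest in LHb 3, with 1 and 3 UMIs (1.73 and 5.70 CPM), and low in LHb 7, at 14.8 and 7.24 CPM. LHb 3 thus held as little Kcnj3 as the medial subclusters. Kcnj9 was highest in LHb 2, at 112 and 106 CPM, with a range of 2.84-fold and 2.94-fold. Kcnj5 reached 27.8 and 21.1 CPM in LHb 5 and 11 and 21.8 CPM in LHb 1.

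Over the 17 subclusters, with CPM on the log2 scale and the libraries averaged, Gabbr2 went with Kctd12b (Pearson r = 0.89) and with Kctd8 (r = 0.76). Kcnj3 went with Kcnj9 (r = 0.75) and against Gabbr2 (r = -0.78) and Kctd8 (r = -0.78). These values are descriptions over 17 points that share libraries, depth and the medial and lateral split. With other cell classes added (26 groups), Gabbr2 still went with Kctd12b (r = 0.78) and Kctd8 (r = 0.82). The Kcnj3 values were weaker there, at r = 0.48 with Kcnj9, -0.28 with Gabbr2 and -0.36 with Kctd8.

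Outside the habenula classes, thalamus neuron-like cells held the highest Kcnj9, at 190 and 203 CPM. They also held the highest Kcnj3 of the neuron classes, at 97.4 and 104 CPM, although the subcluster LHb 8 held a similar level (99.4 and 100.2 CPM). Gabbr1 in thalamus neuron-like cells was 857 and 974 CPM, below both habenula divisions. Gabbr2 there was 383 and 410 CPM, between the divisions. Other neurons held Gabbr1 at 748 and 632 CPM and Gabbr2 at 153 and 117 CPM. Free RNA held Gabbr1 at 619 and 634 CPM, near the level of other neurons and below both habenula classes. Kctd12 was highest in microglia-like cells, at 810 CPM (683 to 954) and 476 CPM (363 to 612), above any habenula neuron subcluster. Kcnj5 in thalamus neuron-like cells stood at 39.7 and 3.84 CPM, on 31 UMIs in 133 cells and 1 UMI in 56 cells.

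**Figure D4:**
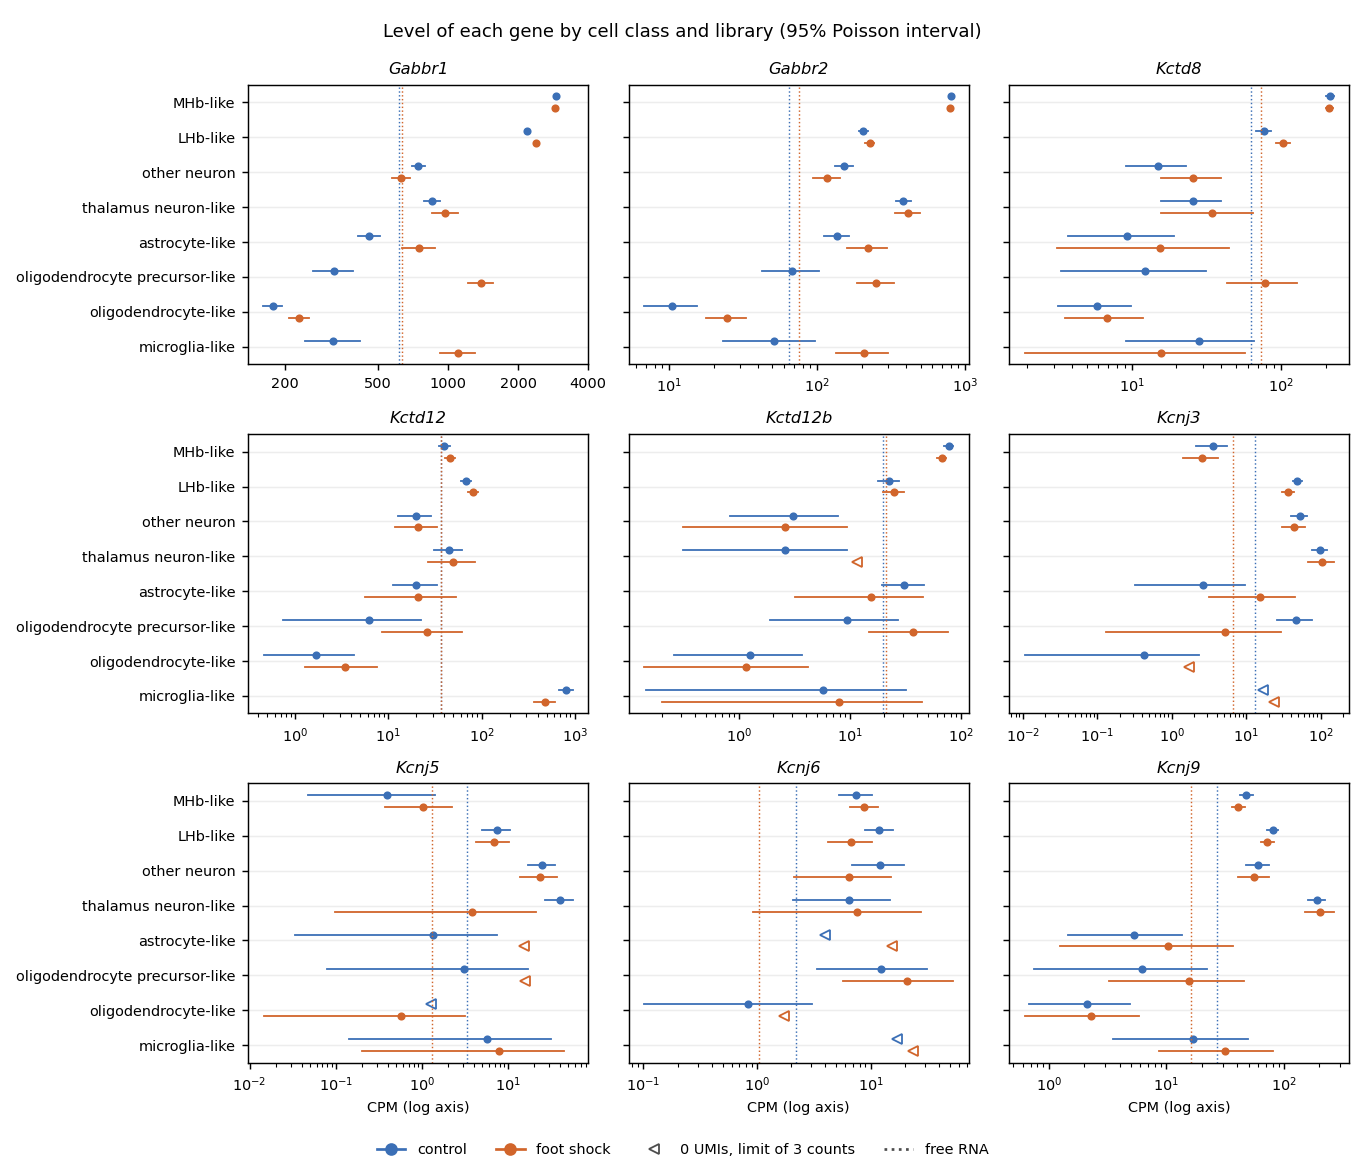
Level of 9 genes of the set (CPM, log axis) in 8 cell classes, in the control (blue) and foot shock (orange) libraries. Bars are 95% Poisson intervals, open triangles are 0 UMIs drawn at the limit of 3 counts, and dotted lines are free RNA. Gabbr1 and Gabbr2 peak in MHb-like neurons, Kctd12 peaks in microglia-like cells and Kcnj9 in thalamus neuron-like cells.

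Partner genes were read from fixed lists of receptor-binding proteins, inhibitory G protein subunits, regulators of G protein signalling (RGS), presynaptic Cav2 calcium channels, adenylyl cyclases, other Kctd and inward rectifier genes, and genes for GABA synthesis, release and uptake. Of 58 measured among 73 genes, 8 were higher in MHb-like and 26 higher in LHb-like neurons by the same 1.5-fold rule, with a median log2 ratio of -0.50 and -0.37. Over all genes tested, 8.44% and 16.3% were.

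The Cav2 calcium channels, which the receptor inhibits at most terminals, divided by subtype. Cacna1e (Cav2.3), which is known to work with KCTD8 and KCTD12b at medial habenula terminals, reached 456 and 375 CPM in MHb-like and 239 and 185 CPM in LHb-like neurons, 1.91-fold and 2.03-fold higher. Cacna1a (P/Q-type) stood at 1.77 and 3.74 CPM against 65.9 and 46.3 CPM, and Cacna1b (N-type) at 1.97 and 2.21 CPM against 55.9 and 46.9 CPM. MHb-like neurons therefore held Cacna1e with Kctd8 and Kctd12b, and little of the other Cav2 genes.

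Of 9 measured RGS genes and anchors, 2 were higher medially and 3 laterally, against 8.44% and 16.3% of all genes tested. Rgs6, a GTPase-activating protein that ends G protein signals, reached 250 and 265 CPM against 39.2 and 42.6 CPM (6.38-fold and 6.22-fold), and Rgs10 was 1.91-fold and 1.89-fold higher. Rgs7, of the same subfamily as Rgs6, had the opposite order at 13 and 16 CPM against 42.7 and 44.7 CPM, as did Gpr158, a membrane receptor that binds Rgs7, at 44.4 and 37.7 CPM against 125 and 112 CPM. Rgs11 was also higher laterally. Among 12 G protein subunit genes, Gnb4 was higher medially at 76.3 and 67.0 CPM against 22.2 and 32.7 CPM. Gng2 was higher laterally at 201 and 194 CPM against 36.2 and 30.9 CPM, and Gnai1, Gnb2, Gng4 and Gng7 were also higher laterally. For Gng7 the control interval of the lateral to medial ratio held 1, at 1.82 (0.967 to 3.51). That was 1 medial and 5 lateral genes, against the same shares of all genes tested.

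The adenylyl cyclases, which inhibitory G proteins restrain, were higher in LHb-like neurons for 7 of 8 measured genes and in MHb-like neurons for none. Of all genes tested, 16.3% were higher laterally and 8.44% medially. Adcy5 stood at 38.2 and 33.6 CPM laterally and 1.77 and 3.57 CPM medially, and Adcy1 at 30.6 and 25.0 CPM against 0.590 and 0.680 CPM. Adcy2, Adcy3, Adcy6, Adcy7 and Adcy9 were the other 5. Of the receptor-binding proteins, Ajap1, an extracellular partner of Gabbr1, stood at 44.6 and 35.8 CPM laterally and at 3 and 4 UMIs medially, and App at 884 and 994 CPM against 484 and 549 CPM.

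Of the 14 other measured Kctd genes, Kctd4 and Kctd6 were higher medially and Kctd1 and Kctd7 laterally. Over all genes tested, 8.44% were higher medially and 16.3% laterally, so 2 and 2 of the 14 are not read as a trait of this list. For Kctd6 the control interval held 1, at 1.58-fold (0.955 to 2.68). Among 4 other measured inward rectifiers, Kcnj4 was higher medially at 6.68 and 6.46 CPM against 0.955 and 0.925 CPM. Kcnj10, a gene typical of astrocytes, was also counted as higher medially, on 25 and 56 UMIs against 11 and 20 UMIs. Its medial to lateral ratio was 1.87 (0.888 to 4.21) and 1.54 (0.912 to 2.72), with intervals that held 1 in both libraries. The MHb-like level includes a subcluster led by astrocyte genes, with 9 control and 55 foot shock cells. Summed astrocyte markers were 118 and 192 CPM in MHb-like and 146 and 168 CPM in LHb-like neurons. Their part in the Kcnj10 ratio was not tested. Kcnj2 and Kcnj12 were higher laterally. Gad2 and Abat, for GABA synthesis and breakdown, were higher laterally, with Gad2 at 49.7 and 49.3 CPM against 1.77 and 2.89 CPM. Gad1 and Slc32a1, of the same list, had only 3 and 16 UMIs and 2 and 10 UMIs in LHb-like neurons. Both were under the minimum of 20 UMIs and not measured.

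The genes most like each member were taken over 26 groups of cells (subclusters and other classes, log2 of CPM plus 10, 10322 genes compared). Gabbr1 was nearest to Abhd8 (r = 0.95), Shank1 and Fam57b (both r = 0.94), Gabbr2 to Vav3 and Kcnma1 (both r = 0.93) and Fat3 (r = 0.92). Kctd8 was nearest to Necab2 and Cacnb3 (both r = 0.97) and Sh3bgrl2 (r = 0.95). Kctd12 had looser matches in Znrf2 (r = 0.82), Arpc4 (r = 0.78) and Ly6e (r = 0.77), and Kctd12b in RP24-402O2.2 (r = 0.87), Neurod1 (r = 0.84) and Tesc (r = 0.83). Kcnj3 was nearest to Sez6l (r = 0.95), Fam189a1 and Ajap1 (both r = 0.93). Kcnj9 was nearest to Nrip3 and Hecw1 (both r = 0.95) and Slc17a6 (r = 0.94), for a vesicular glutamate transporter. Kcnj5 was nearest to Bdnf (r = 0.83), Cd83 and Rnd1 (both r = 0.82), and Kcnj6 to Prr36, Shisa7 (both r = 0.79) and Phf23 (r = 0.78). These groups share libraries and depth, and a high r among so many genes is a description of pattern.

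Between the libraries, the set was close to level in MHb-like neurons. Of 8 genes with at least 20 UMIs in the class over both libraries, 0 differed by 1.5-fold or more, against 8.18% of the genes measured in that class (3.89% higher and 4.29% lower). The foot shock to control ratio was 0.989 (0.968 to 1.01) for Gabbr1, 0.978 (0.938 to 1.02) for Gabbr2 and 0.99 (0.912 to 1.07) for Kctd8. For Kctd12b it was 0.865 (0.750 to 0.998), the 1 interval of the 8 that did not hold 1. Kctd12 stood at 1.15 (0.952 to 1.38), Kcnj9 at 0.854 (0.712 to 1.03), Kcnj6 at 1.18 (0.764 to 1.85) and Kcnj3 at 0.721 (0.338 to 1.51).

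In LHb-like neurons 1 of 9 genes passed 1.5-fold, against 9.17% of the genes measured in that class (3.68% higher and 5.49% lower). Kcnj6 was lower in foot shock at 0.568 (0.328 to 0.956), on 50 UMIs in control and 22 in foot shock. Kctd8 was higher at 1.36 (1.16 to 1.58) and Kcnj3 lower at 0.747 (0.591 to 0.942), both under 1.5-fold. Gabbr1 stood at 1.09 (1.06 to 1.13), Gabbr2 at 1.10 (0.997 to 1.22), Kctd12 at 1.19 (1.01 to 1.41) and Kcnj9 at 0.9 (0.758 to 1.07).

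The make-up of the lateral class differed between the libraries, with LHb 1, the subcluster poor in Gabbr1 and Kctd8, holding 28.9% of its control cells and 13.8% of its foot shock cells. With the control shares of subclusters given to both libraries, the ratio was 1.15 for Kctd8, 0.871 for Kcnj3, 0.620 for Kcnj6 and 1.03 for Gabbr1. It was 1.11 for Kctd12, 1.09 for Gabbr2 and 0.915 for Kcnj9. Kctd12b went from 1.11 to 0.899 and Kcnj5 from 0.917 to 1.29, so not all ratios came closer to 1. The sum of medial markers in LHb-like neurons was 586 and 701 CPM, with 8 of 11 markers higher, and their part in the Kctd8 ratio was not tested. Within single subclusters, Kcnj3 in LHb 2 was lower in foot shock at 0.325 (0.121 to 0.755), on 30 and 7 UMIs, and Kctd12 in LHb 8 was higher at 1.81 (1.17 to 2.84). In the medial division Kctd12b in MHb 8 was lower at 0.458 (0.233 to 0.887), on 23 and 18 UMIs. These 3 were singled out after their values were seen. They come from 43 medial and 51 lateral measured values, of which 5 and 7 had intervals that did not hold 1. In the medial subclusters 0 values were at least 1.5-fold higher and 1 lower, and in the lateral ones 3 were higher and 4 lower. The share over all genes was not computed for subclusters.

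**Figure D5:**
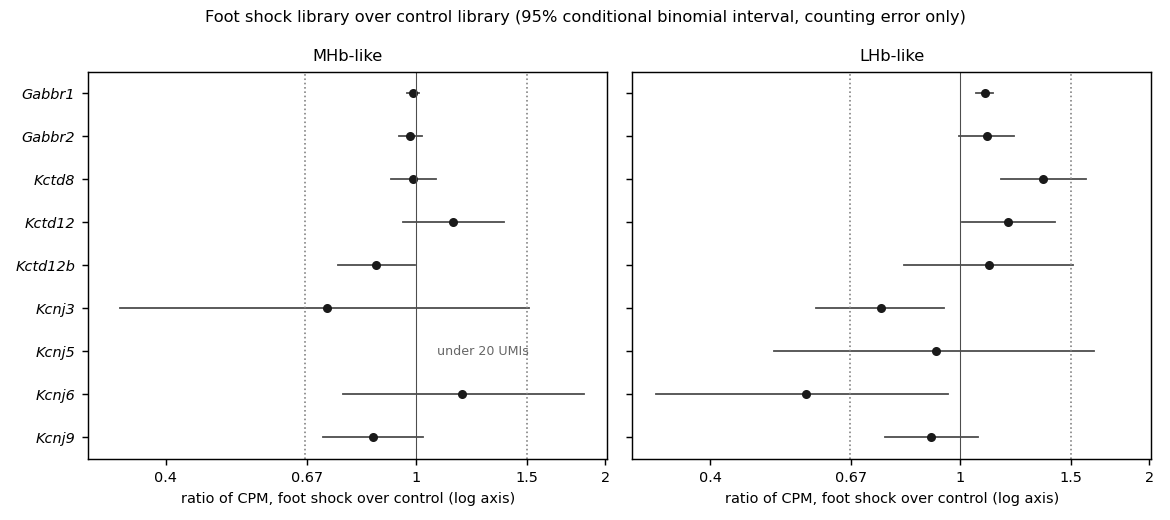
Foot shock to control ratio of each gene of the set in MHb-like and LHb-like neurons (log axis), with 95% intervals of counting error and lines at 1 and 1.5-fold. The MHb-like ratios lie between 0.721 and 1.18, and in LHb-like neurons Kcnj6 lies lowest at 0.568 and Kctd8 highest at 1.36.

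Among cells that are not neurons, the receptor genes were higher in the foot shock library in several classes. Gabbr1 in oligodendrocyte precursor-like cells stood at 324 and 1387 CPM, or 4.29-fold (3.41 to 5.43) higher in foot shock, in a class where 15.7% of measured genes were at least 1.5-fold higher. In microglia-like cells it was 323 and 1102 CPM (21.4% of measured genes there were at least 1.5-fold higher), and in astrocyte-like cells 459 and 750 CPM. Free RNA held Gabbr1 at 619 and 634 CPM, above the control values just given and below the foot shock values. Gabbr2 in oligodendrocyte precursor-like cells was 67.8 and 251 CPM, and in microglia-like cells 51.0 and 206 CPM. In committed oligodendrocyte precursor-like cells Gabbr1 was 84.4 and 432 CPM and Gabbr2 16.9 and 179 CPM, on 5 and 34 UMIs for Gabbr2. Foot shock cells of these classes also held more neuronal marker UMIs, which summed to 4699 and 9483 CPM in oligodendrocyte precursor-like cells (7 of 7 markers higher), 1314 and 6051 CPM in microglia-like cells (6 of 7) and 712 and 2759 CPM in astrocyte-like cells (7 of 7). Medial habenula markers summed to 311 and 1167 CPM in oligodendrocyte precursor-like cells (3.75-fold, 10 of 11 higher), 346 and 936 CPM in microglia-like cells (10 of 11) and 140 and 241 CPM in astrocyte-like cells (9 of 11). Lateral habenula markers summed to 813 and 942 CPM in oligodendrocyte precursor-like cells (1.16-fold, 0.953 to 1.40, 8 of 10 higher). They summed to 130 and 325 CPM in microglia-like cells (7 of 10) and 321 and 421 CPM in astrocyte-like cells (8 of 10). The part of these markers in the glial receptor values was not tested.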

How the data were processed

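Single-cell RNA counts of mouse habenula were analysed, as 1 control and 1 foot shock library. The deposited counts are UMIs per gene and barcode; per the submitters' processing notes they were made with Cell Ranger 2 on mm10, and no source used here names the annotation release. Gene positions come from GENCODE vM21, which held 28339 of the 28692 gene identifiers, and promoters from RefSeq (GRCm38.p6), where 8 of the 10 members matched.

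Cells with at least 1000 UMIs, 500 to 6000 genes and at most 20% mitochondrial UMIs were kept. Scrublet (in scanpy), with an expected rate of 0.08, marked 249 and 69 barcodes (4.85% and 1.43%) as doublets, and these were removed. The remaining cells of both libraries were clustered together (scanpy 1.11.5, 2000 variable genes, 30 components, 15 neighbours, Leiden resolution 1; leidenalg 0.10.2, numpy 2.4.6, scipy 1.17.1, Python 3.11.15) with the 10 genes and their partner lists left out of the features. A class name needed at least 3 of its markers, each found in at least 10% of the cells and at 33.3% or more of its highest cluster level, and habenula subclusters also needed Pou4f1 at 1 or more per 10000 UMIs. Levels are UMIs summed over a class or subcluster per 1000000 UMIs. Ratios carry exact binomial intervals, and intervals and limits (3 counts for 0 UMIs) cover counting error only. Shares of cells with a UMI were read after thinning each cell to 1000 UMIs, the minimum depth kept. The interval code was tested on simulated counts.

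The text names all 10 members, partner genes with at least 20 UMIs and at least a 1.5-fold difference the same way in both libraries, and for each member with at least 100 UMIs the 3 genes most like it among genes with at least 200 UMIs. The members, lists and rules were chosen with earlier results of these data known. Subclusters with fewer than 30 cells in a library, were not described but stay in the class levels. Among them is 1 of the MHb-like class led by astrocyte genes, with 9 control and 55 foot shock cells. Total UMIs over all barcodes were 23095501 in control and 22189951 in foot shock. Trimmed mean of M values (TMM) scaling, cell filters, clustering resolution and other alternatives were compared in the closing section. Some genes that met the naming rule are not reported here.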

Additional observations from a re-analysis of the deposited data

Results flagged for a closer look

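For 3 genes the foot shock to control ratio had opposite directions in different cell classes, with intervals of counting error that did not hold 1. The difference between the classes was not tested, since each group was 1 library. Gabbr1 was higher in foot shock in mural cell-like cells, at 7.16 (2.52 to 28.0) on 4 and 29 UMIs, and lower in other neurons, at 0.845 (0.756 to 0.942). Gabbr2 was higher in committed oligodendrocyte precursor-like cells, at 10.6 (4.13 to 34.8) on 5 and 34 UMIs, and lower in other neurons, at 0.763 (0.589 to 0.983). Kctd12 was higher in LHb-like neurons, at 1.19 (1.01 to 1.41), and lower in microglia-like cells, at 0.587 (0.427 to 0.8) on 143 and 60 UMIs. In mural cell-like cells summed markers of neurons stood at 580 and 975 CPM (5 of 7 markers higher, 2 at 0 in control), medial habenula markers at 160 and 585 CPM (6 of 11 higher, 4 at 0 in control) and oligodendrocyte markers at 284 and 1901 CPM (6.70-fold, 8 of 8 higher). Lateral habenula markers stood there at 111 and 48.7 CPM (1 of 10 higher) and astrocyte markers at 247 and 24.4 CPM (0 of 8 higher). In committed oligodendrocyte precursor-like cells markers of neurons stood at 571 and 3514 CPM (7 of 7 higher) and medial habenula markers at 294 and 648 CPM (11 of 11 higher). Lateral habenula markers stood there at 213 and 385 CPM (9 of 10 higher). Their part in the Gabbr1 and Gabbr2 ratios was not tested.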

How the results depend on the processing

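The counts were recomputed under 11 alternative settings listed at the outset and 4 chosen after seeing the data. Of the member values recomputed, 179 of 216 for MHb-like over LHb-like and 211 of 221 for foot shock over control stayed within their main intervals, and no value counted as different changed sign. The log2 TMM factor was -0.16 and -0.15 for MHb-like over LHb-like, which raises those ratios by that size, and -0.04 between the libraries in each class. It changed none of the 6 counts of members.

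The 3 genes higher in MHb-like neurons were the same genes under every alternative that was run except resolution 1.5, where Kctd8 was lost (2 genes). Of the 4 higher in LHb-like neurons, Kctd12 was lost when cells were averaged, and Kcnj5 with at least 2000 UMIs per cell, resolution 1.5, the top 8% of doublet scores removed or Pou4f1 at 2 per 10000 (3 genes each). The number of genes varying among medial subclusters was 3, and 5 with at least 2000 UMIs or at resolution 0.5. It was 2 to 4 under the others, with other genes: Gabbr1 was not counted with doublets kept or under marker gates. Among lateral subclusters it was 4 to 6. With the low-depth and astrocyte-led subclusters left out, the same 3 and 4 members differed between the divisions. Between the libraries, MHb-like neurons had 1 gene past 1.5-fold with cells averaged (Kcnj3) or with no minimum of UMIs (Kcnj5). LHb-like neurons had 2 with at least 2000 UMIs or Pou4f1 at 2 per 10000 (Kcnj3 and Kcnj6) and with no minimum of UMIs (Kctd16 and Kcnj6). The cause was not tested.

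No paired analysis was possible because the labels give no replicate numbers and each group was 1 library. Depth limits Kcnj3 and Kcnj5 in MHb-like neurons, Kctd16, and Kcnj6 in single subclusters, where a difference of 1.5-fold was not detectable.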
